A study of Mus musculus with 5 samples.

Results

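The genes described here encode nuclear-encoded subunits of the mitochondrial respiratory chain and ATP synthase, complexes I to V. A fixed list of 50 subunit genes was matched to probe sets annotated to exactly 1 gene, and the brightest probe set on average stood for each gene. This gave 48 measured members among 12394 named genes. Ndufs6 and Cox7b were not analysed here, since no probe set was annotated to either of them alone. The transcripts were measured in ID8 cells, a mouse ovarian cancer line derived from ovarian surface epithelium, with Affymetrix arrays. One group (3 arrays, replicates 1, 2 and 3) was the parental line, kept in DMEM medium to which 10% fetal bovine serum (FBS) had been added. The other (2 arrays, replicates 2 and 3) was the same line grown in DMEM with 10% ascites from mice that carried ID8 tumours, for 7 days. Whether the FBS cells were cultured equally long, and whether the ascites medium also held serum, is not given in the sources used here. Nothing in the labels ties the replicates to separate cultures, so the spread behind the p-values is that among these arrays and may be technical.

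The respiratory chain passes electrons from NADH (complex I) and succinate (complex II) through complex III and cytochrome c to oxygen at complex IV. The proton gradient that complexes I, III and IV build drives ATP synthesis by complex V. Most subunits are encoded in the nucleus and imported, while a small set of core subunits of complexes I, III, IV and V is encoded by mitochondrial DNA. Nuclear respiratory factor 1 (NRF1), GABP of the ETS family and YY1 are known regulators of many of the nuclear genes, with PGC-1 coactivators.

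Values below are log2 array signals, and changes are ascites minus FBS with the standard error (SE) of the limma fit over all 12394 genes. Adjusted p-values are Benjamini-Hochberg values over those genes, and the threshold was 0.05. FBS replicates 1 and 2 were nearly alike (SD of their difference over all genes 0.117), while the SD of FBS replicate 3 against either of them was 0.427. Between the ascites arrays it was 0.239. Keratin 8, 18 and 19 (Krt8, Krt18, Krt19) had FBS means of 13.34, 13.39 and 13.19, and Wt1, a mesothelial and ovarian surface factor, 12.43. On this list of 8 ovarian surface markers, the array means were 11.4 to 12.5 in FBS and 10.5 to 10.8 in ascites. Krt18 and Krt19 fell (2 of 8, beside 321 of 12394 genes called lower), by -1.43 and -0.88. The others did not pass: Krt8, Wt1, Upk3b and Bnc1 changed by -0.945, -1.43, -2.30 and -3.19, and Msln by 0.37. Krt7 was dimmer, with group means of 7.25 in FBS and 5.245 in ascites. The 5 leukocyte markers had array means of 5.04 to 5.08 in FBS and 5.05 to 5.15 in ascites, with the pan-leukocyte marker Ptprc at 3.43 and 3.40. The 6 macrophage markers had array means of 5.79 to 5.85 and 5.84 to 6.07. The 4 fibroblast markers had array means of 7.64 to 8.38 in FBS and 7.18 to 7.495 in ascites without overlap, and none passed (Dcn 13.81 and 12.86, Col1a1 7.48 and 6.04 in the group means). The part of these shifts in the results below was not tested. In bulk RNA, fewer cells of a type and less RNA per cell cannot be told apart.

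Respiratory chain transcripts differed little between ID8 cells in ascites and in FBS. Changes of the 48 members ran from -0.40 to 0.56 on the log2 scale (0.756-fold to 1.48-fold), with a median of 0.08 beside a median of 0.00 over all genes. Only 1 member passed the threshold, Ndufb9, which was higher in ascites (2.08% of members, beside 2.69% of all genes called higher and 5.28% called in either direction). By limma 0 members were called lower, and 2 members were lower at an unadjusted p below 0.05. In all, 11 members had an unadjusted p below 0.05 (22.9%, beside 24.3% of all genes). Over the 48 members together, the counts of calls were thus near or below the background of all genes. Of the 11, 9 lay in complex I (7 higher and 2 lower, 37.5% of its 24 members), 1 in complex III and 1 in complex IV. Complexes II and V and cytochrome c had 0.

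None of the 48 members differed by 2-fold or more between the groups' means, compared with 5.58% of all genes. The 95% confidence interval of the change lay inside a 2-fold difference in either direction for 47 of 48 members, beside 81.4% of all genes, and Cycs was the exception. All measured members were bright, with mean signals of 10.84 to 14.93 in a table that runs from 2.63 to 15.38. Ndufa1, Uqcrb, Cox5b and Cox6a1 were the brightest of them, and whether the signal is compressed near the top of that range was not tested.

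**Figure D1:**
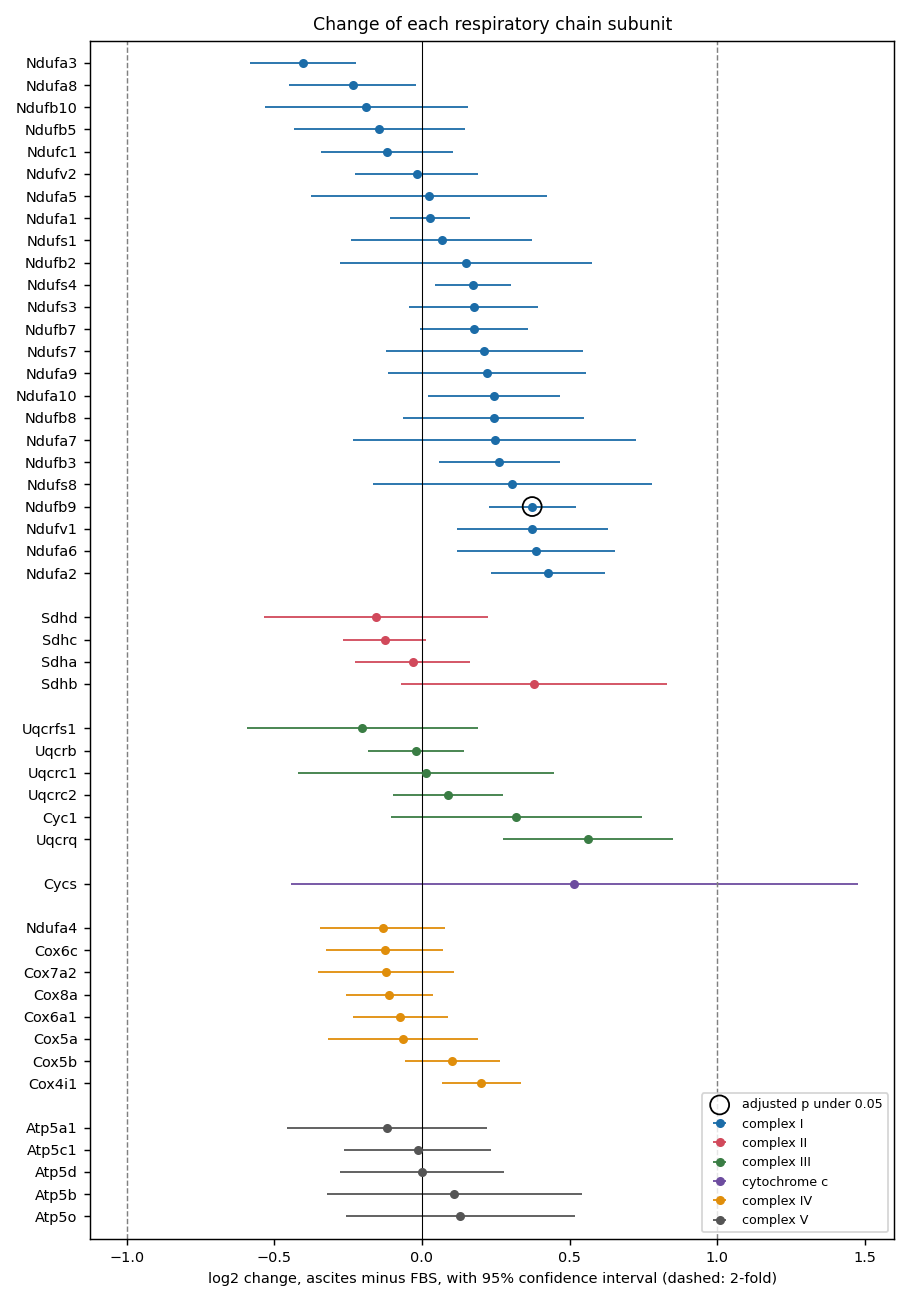
Log2 change (ascites minus FBS, x axis) of each of the 48 measured subunits with its 95% confidence interval, grouped and coloured by complex; dashed lines mark a 2-fold difference and the open circle marks the gene past the threshold. Intervals of all members except Cycs lie between the dashed lines, and Ndufb9 is the circled gene.

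Complex I oxidises NADH and was represented by 24 of 25 listed subunits. Its median change was 0.18, with 18 members higher and 6 lower in ascites. The arrays of the groups did not overlap for 13 of the 24 (54.2%). Over the 48 members that lack of overlap held for 21 (43.8%), beside 38% of all genes. It held for 1 of 4 members of complex II, 2 of 6 of complex III, 5 of 8 of complex IV (62.5%) and 0 of 5 of complex V. The core subunits, most of which carry the flavin or iron-sulphur clusters, had a median of 0.19 (6 genes). The accessory subunits had one of 0.17 (18 genes).

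Ndufb9, an accessory subunit of the membrane arm, read 13.38, 13.42 and 13.33 in FBS and 13.73 and 13.77 in ascites. Both ascites arrays lay above all FBS arrays. It rose by 0.37 (SE 0.05, 1.30-fold, adjusted p = 0.0428). A second bright probe set of the gene also changed by 0.37, while the remaining one, with a mean signal of 5.99, changed by 0.00. Ndufb9 no longer passed when an array other than FBS replicate 3 was left out (adjusted p = 0.188 and 0.18 for the omission of FBS replicates 1 and 2, and 0.111 and 0.146 for that of ascites replicates 2 and 3), although the change stayed between 0.35 and 0.40. It was also lost with FBS replicates 1 and 2 averaged as 1 sample (0.178). With the mean of all probe sets of a gene, which takes in the dim one, the change was 0.25 (adjusted p = 0.0685).

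Ndufa2 and Ndufa3, both small accessory subunits, lay at the opposite ends of complex I. Ndufa2 read 11.82, 11.73 and 11.87 in FBS and 12.29 and 12.18 in ascites. Its change was 0.43 (SE 0.07, adjusted p = 0.053). Ndufa3 read 12.75, 12.76 and 12.84 in FBS against 12.44 and 12.32 in ascites. Its change was -0.40 (SE 0.07, adjusted p = 0.0513), and its other probe set gave -0.40 as well. The groups overlapped for neither gene, and neither passed the threshold. Ndufa2 passed with the mean of all probe sets of each gene (adjusted p = 0.0492), and both passed with dim genes left out (0.0482 and 0.0484), with array weights (0.0209 and 0.0174) and without FBS replicate 3 (0.0332 and 0.0381).

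Of the core subunits, Ndufv1, which binds NADH and the flavin, read 11.95, 11.99 and 12.20 in FBS and 12.41 and 12.43 in ascites. Its change was 0.37 (SE 0.10, adjusted p = 0.106) with no overlap, and its other probe sets both gave 0.25. Ndufs1, the largest iron-sulphur subunit, read 10.73, 10.74 and 10.97 in FBS and 10.78 and 10.98 in ascites, so the groups overlapped (change 0.07, SE 0.11). The other core members Ndufs8, Ndufs7, Ndufs3 and Ndufv2 had changes of 0.31, 0.21, 0.18 and -0.02. Ndufs8 and Ndufs7, which carry the last clusters before ubiquinone, had overlapping groups, whereas Ndufs3 did not overlap.

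Among the other accessory subunits, Ndufa6 (0.39), Ndufb3 (0.26), Ndufa10 (0.24) and Ndufs4 (0.17) had unadjusted p-values below 0.05 and adjusted p-values of 0.109 to 0.178. Ndufa8 was the other member with an unadjusted p below 0.05, at -0.24 (adjusted p = 0.176). Ndufa7, Ndufb8, Ndufa9, Ndufb7 and Ndufb2 had changes of 0.25, 0.24, 0.22, 0.18 and 0.15. Values close to 0 were found for Ndufa1 (0.03) and for the probe set used for Ndufa5 (0.03), whose other probe set, nearly as bright, gave 0.23. Ndufc1, Ndufb5 and Ndufb10 gave -0.12, -0.15 and -0.19.

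Complex II, succinate dehydrogenase, links the chain to the citric acid cycle and is encoded wholly in the nucleus. Its 4 members had a median change of -0.08, and 0 of them passed by limma, also at an unadjusted p below 0.05. The flavoprotein Sdha read 11.64, 11.63 and 11.79 in FBS and 11.64 and 11.67 in ascites (change -0.03, SE 0.07). Sdhb, the iron-sulphur subunit, read 11.75, 11.81 and 12.16 in FBS and 12.42 and 12.15 in ascites. Its change was 0.38 (SE 0.17, adjusted p = 0.274), and FBS replicate 3 lay between the ascites arrays. The membrane anchors did not share that direction, with Sdhc at -0.13 and Sdhd at -0.16. Sdhd read 11.85, 11.80 and 12.19 in FBS and 11.76 and 11.82 in ascites, so only FBS replicate 3 stood clearly higher.

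Complex III passes electrons from ubiquinol to cytochrome c, and its 6 members had a median change of 0.05. Uqcrq, a small subunit of this complex, had the largest change among all members. It read 13.16, 13.20 and 13.43 in FBS and 13.77 and 13.88 in ascites, with no overlap (change 0.56, SE 0.11, 1.48-fold, adjusted p = 0.0651). Its other probe sets were dim, with mean signals of 5.05 to 7.07, and changed by -0.02, 0.36 and 0.09. The Rieske iron-sulphur protein Uqcrfs1 had the lowest change of the complex (-0.20, SE 0.15, adjusted p = 0.473). It read 12.07, 12.07 and 12.45 in FBS and 11.96 and 12.03 in ascites, just below the FBS arrays. Cyc1, cytochrome c1, read 12.14, 12.04 and 12.48 in FBS and 12.46 and 12.62 in ascites (change 0.32, SE 0.16, adjusted p = 0.324). The core proteins Uqcrc1 and Uqcrc2 changed by 0.01 and 0.09, and Uqcrb by -0.02.

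Cycs, somatic cytochrome c, carries electrons between complexes III and IV and triggers caspase activation when it leaves mitochondria. It varied most among the members within FBS, with readings of 12.27, 12.07 and 13.14, against 13.03 and 12.99 in ascites. FBS replicate 3 lay above both ascites arrays, so the groups overlapped. The change was 0.52 (SE 0.36, 95% confidence interval -0.44 to 1.48, adjusted p = 0.458). Its other probe sets gave 0.31 and 0.53. Without FBS replicate 3 the change was 0.84 (adjusted p = 0.0203).

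Complex IV, cytochrome c oxidase, had a median change of -0.09 over 8 of 9 listed members, with Ndufa4 counted here because its product is now assigned to this complex. The changes of complex IV kept to a range of -0.13 to 0.20. The groups did not overlap for 5 of the 8, with 2 higher and 3 lower in ascites (62.5%, beside 38% of all genes). Cox4i1, the widely expressed form of subunit 4, read 13.63, 13.66 and 13.67 in FBS and 13.88 and 13.83 in ascites, with no overlap (change 0.20, SE 0.05, adjusted p = 0.0987). Ndufa4 read 13.71, 13.74 and 13.87 in FBS and 13.70 and 13.58 in ascites (change -0.13, SE 0.08, adjusted p = 0.401). Cox5a read 13.92, 13.95 and 14.14 in FBS and 13.88 and 14 in ascites, with overlap (change -0.06, SE 0.09). The remaining members were Cox5b (0.10), Cox6a1 (-0.07), Cox8a (-0.11), Cox7a2 (-0.12) and Cox6c (-0.13). By the probe sets used, 6 of 8 complex IV members and 6 of 24 complex I members had lower means in ascites, beside 6069 of 12394 genes. The complex IV falls were small, to -0.13 at most. Other bright probe sets gave 0.03 and 0.11 for Cox5a and 0.045 for Cox6a1, while those of Cox6c, Cox7a2 and Cox8a stayed below 0. The contrast between the complexes was not tested.

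In complex V, the ATP synthase, the arrays of FBS and ascites overlapped for each of the 5 members, as they did for Cycs. Among all genes 38% did not overlap. The median change of the 5 members was 0.00. The catalytic subunit gene Atp5b read 13.19, 13.28 and 13.64 in FBS and 13.41 and 13.55 in ascites (change 0.11, SE 0.16, adjusted p = 0.723). Atp5a1, the other major subunit of the catalytic head, read 12.92, 12.91 and 13.24 in FBS and 12.93 and 12.88 in ascites (change -0.12, SE 0.13). Its other probe sets gave 0.24 and 0.73, the latter at a mean signal of 8.13. Atp5o, the stalk subunit that confers oligomycin sensitivity, read 11.99, 12.06 and 12.40 in FBS and 12.30 and 12.26 in ascites (change 0.13, SE 0.14). The central stalk subunits Atp5c1 and Atp5d changed by -0.02 and 0.00.

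**Figure D2:**
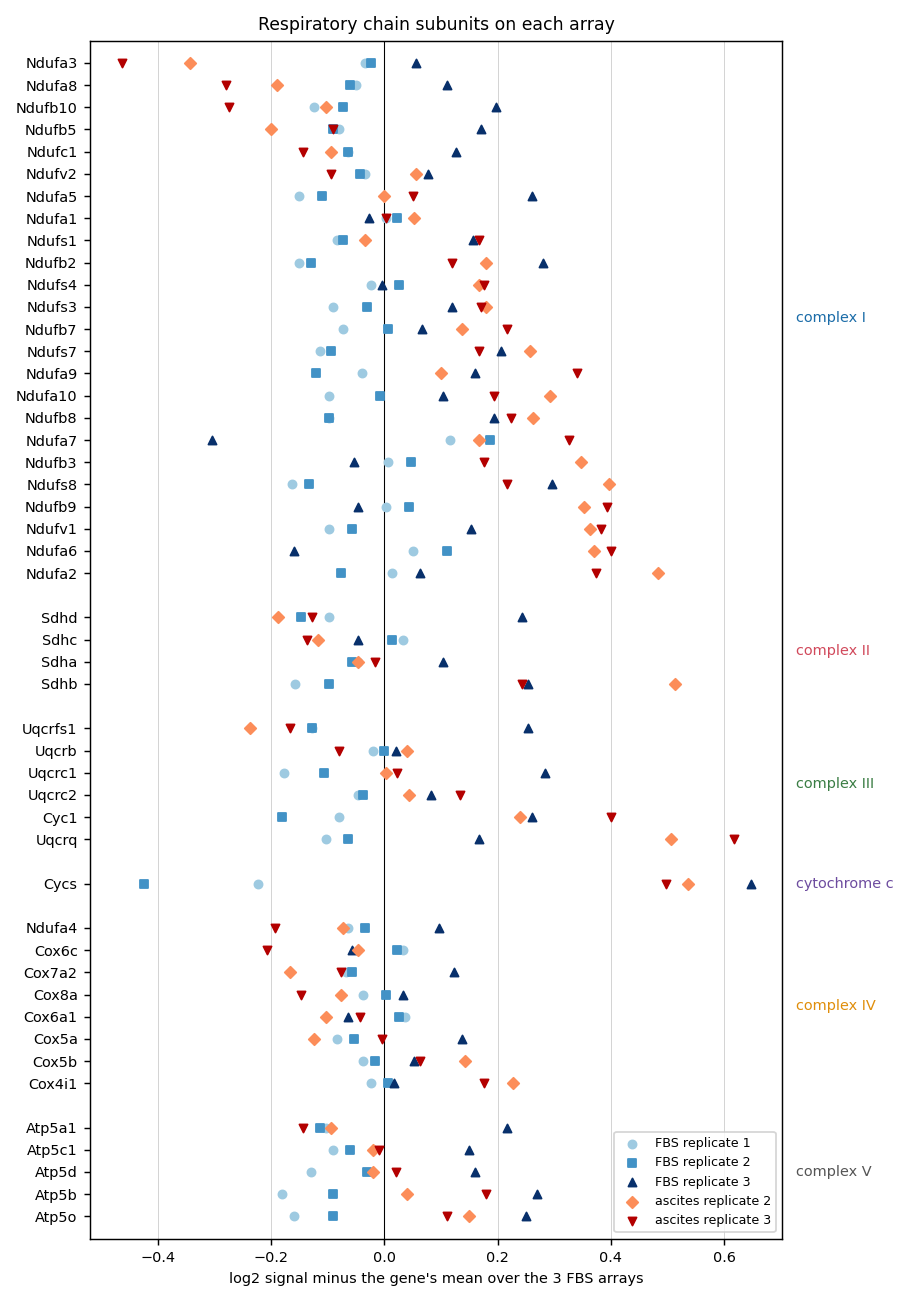
Log2 signal of each of the 48 subunits on each of the 5 arrays (symbols), minus the mean of that gene over the 3 FBS arrays (x axis), grouped by complex and ordered by change. The Cycs points spread most, and FBS replicate 3 (dark triangles) lies to the right of both ascites arrays for every complex V member.

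FBS replicate 3 stood apart on these genes too. It was the highest FBS array for 39 of 48 members, beside 5163 of 12394 genes. It exceeded the mean of FBS replicates 1 and 2 by a median of 0.19 over the members, beside a median of 0.02 over all genes. It also lay above both ascites arrays for 23 members (47.9%, beside 38.3% of all genes), among them all 5 members of complex V and 8 of 24 in complex I. For 32 of 48 members the gap between this array and the mean of the other FBS arrays was larger than the change between the groups, beside 5956 of 12394 genes. Between FBS replicates 1 and 2 no member differed by more than 0.20.

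Mean deviations of each complex from the FBS mean show the same layout. For complex I they were -0.06, -0.03 and 0.09 on the FBS arrays and 0.13 and 0.11 on the ascites arrays. For complex III they were -0.09, -0.09 and 0.18 in FBS and 0.10 and 0.15 in ascites. For complex V they were -0.13, -0.08 and 0.21 in FBS and 0.01 and 0.03 in ascites, and for complex II -0.07, -0.07 and 0.14 against 0.04 and -0.01. For complex IV they were -0.03, -0.01 and 0.04 in FBS and -0.03 and -0.05 in ascites. Only for complex I, among these means, did both ascites arrays lie on the same side of all FBS arrays, and by a small margin. No test was applied to these means.

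**Figure D3:**
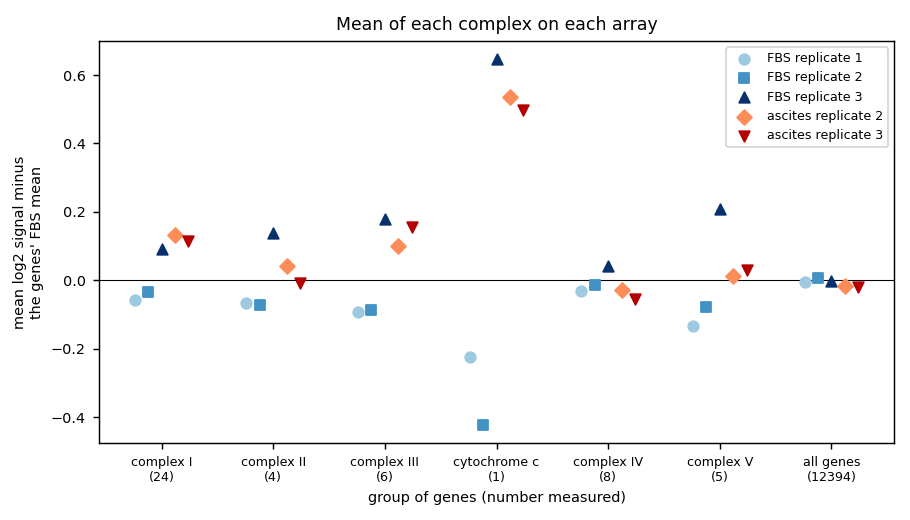
Mean over the measured genes of each complex of the log2 signal minus the gene's FBS mean (y axis), for each of the 5 arrays (symbols); the number of genes is in brackets on the x axis, and all 12394 genes are shown at the right. Ascites arrays lie at 0.13 and 0.11 for complex I and below 0 for complex IV, while FBS replicate 3 is the highest array for complexes II, III, IV and V and for cytochrome c.

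Without FBS replicate 3, 13 of 48 members passed the threshold (27.1%, beside 20.1% of all genes), 12 of them higher in ascites (all genes 9.17%) and 1 lower (all genes 10.9%). The 12 were Ndufa2, Ndufa6, Ndufb2, Ndufb8, Ndufb9, Ndufs3, Ndufs7, Ndufs8, Ndufv1, Uqcrq, Cycs and Atp5o, and the lower gene was Ndufa3. In that fit 9 of the 24 complex I members were called higher, 4 of them core subunits. The FBS spread then rested on the nearly alike replicates 1 and 2. Leaving out any of the other 4 arrays gave 0 calls among the members by limma, with 7 or 8 at an unadjusted p below 0.05 (14.6% or 16.7%, beside 16.3% to 22.2% of all genes in the same fits), and 0 calls over all genes, so every call printed here shares this limit.

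Several members were read by more than 1 probe set, which gave a second look at the direction within the same RNA. The 48 genes had 100 probe sets, and 25 genes had at least 2 with a mean signal above 10. Within these genes the changes of the bright probe sets spread by a median of 0.09 and at most by 0.36, in Atp5a1. For Ndufa3, Ndufb9, Ndufb2 and Cox8a the spread was 0.02 or less. In 4 genes (Atp5a1, Cox5a, Cox6a1 and Uqcrb) the bright probe sets had opposite signs. By the manufacturer's naming, 6 of the probe sets used end in _x_at and 4 in _s_at, marks of probes that may read other transcripts as well.

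**Figure D4:**
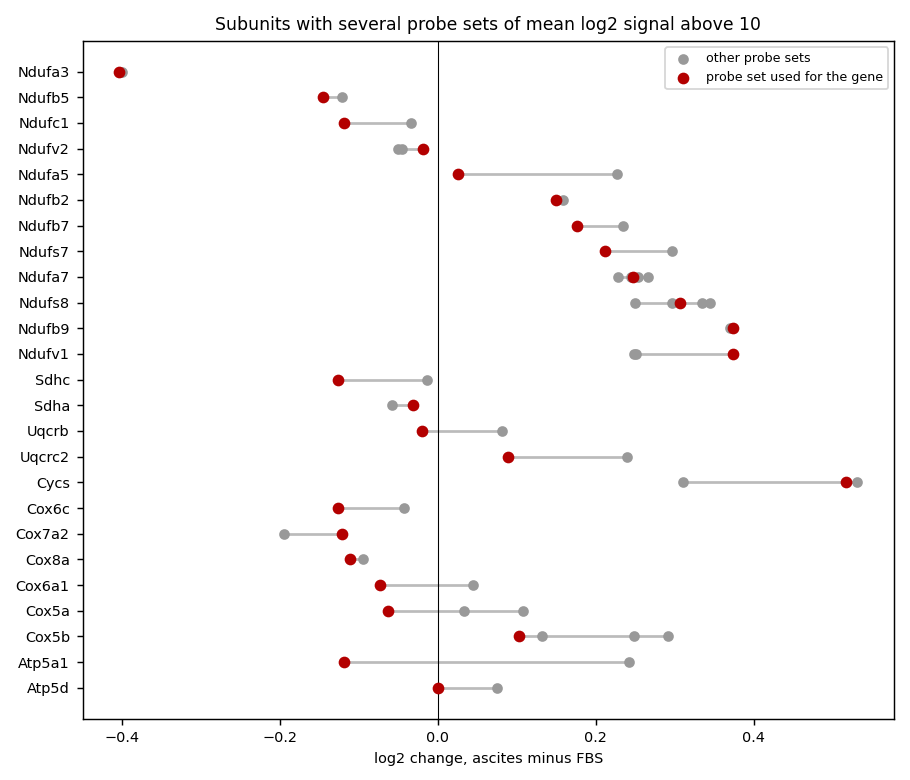
Log2 change (ascites minus FBS, x axis) of every probe set with a mean log2 signal above 10, for the 25 subunit genes with at least 2 of them; red points are the probe set used for the gene and grey points the others. Ndufb9 and Ndufa3 show nearly coinciding points, and Atp5a1 has the widest spread.

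Promoter sequences from RefSeq (GRCm38.p6) were searched for letters bound by known regulators of these genes. The windows held 250 bases before and 50 after each annotated start, and 37 of the 48 members matched, with 41 windows. Members with no entry were Ndufa2, Ndufb9, Ndufs1, Sdhc, Uqcrc2, Uqcrq, Uqcrb, Cyc1, Cox4i1, Cox6c and Atp5a1. Letters were searched on both strands, and 0 pairs of different motifs overlapped in the members' windows. The NRF1 letters GCATGCGC stood in 6 of 41 member windows (14.6%), compared with 4.29% of windows of all genes on the array and 2.71% of all windows. The ETS letters CCGGAAG stood in 17.1% (array genes 14.0%, all windows 8.86%) and the YY1 letters AAGATGG in 14.6% (6.56% and 6.34%). The cyclic AMP response element TGACGTCA stood in 9.76% (2.52% and 1.79%), and the ATF4 letters TGATGNAA in 0 of 41 (2.59% and 3.97%). These matches are descriptions of letters and not evidence of binding.

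The members with the NRF1 letters were Cycs, Sdhb, Ndufa6, Ndufa8, Uqcrc1 and Cox6a1, with changes of 0.52, 0.38, 0.39, -0.24, 0.01 and -0.07. Their median was 0.20, beside 0.03 for the 31 matched members without them. The other motifs gave nearly the same pairs of medians, 0.18 with and 0.03 without the ETS letters, 0.19 and 0.03 for YY1 and 0.20 and 0.03 for the cyclic AMP response element. The promoters of 4 of them are given because they hold the same letters beside changes of either sign. They are the 250 bases before the start, 5′ to 3′ in the direction of the gene, at chr6:50566570-50566819 (minus strand) for Cycs, chr4:140961021-140961270 (plus strand) for Sdhb, chr15:82354292-82354541 (minus strand) for Ndufa6 and chr2:36049339-36049588 (minus strand) for Ndufa8. Capitals mark the NRF1 letters and, in Cycs, also the cyclic AMP response element, which comes first.
Cycs: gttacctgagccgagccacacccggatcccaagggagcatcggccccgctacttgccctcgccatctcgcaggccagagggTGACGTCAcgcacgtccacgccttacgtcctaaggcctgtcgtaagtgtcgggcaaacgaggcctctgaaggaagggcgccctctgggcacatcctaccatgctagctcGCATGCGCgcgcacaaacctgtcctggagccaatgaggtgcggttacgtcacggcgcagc
Sdhb: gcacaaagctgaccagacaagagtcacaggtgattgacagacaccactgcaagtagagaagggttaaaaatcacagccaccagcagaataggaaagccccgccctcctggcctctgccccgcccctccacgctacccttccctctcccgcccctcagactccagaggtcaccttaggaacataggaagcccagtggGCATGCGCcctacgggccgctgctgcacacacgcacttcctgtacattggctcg
Ndufa6: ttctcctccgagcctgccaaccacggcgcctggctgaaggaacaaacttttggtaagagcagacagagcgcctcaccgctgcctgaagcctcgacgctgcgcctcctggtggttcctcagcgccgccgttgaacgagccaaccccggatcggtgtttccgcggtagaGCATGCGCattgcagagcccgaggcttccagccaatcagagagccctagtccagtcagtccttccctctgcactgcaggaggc
Ndufa8: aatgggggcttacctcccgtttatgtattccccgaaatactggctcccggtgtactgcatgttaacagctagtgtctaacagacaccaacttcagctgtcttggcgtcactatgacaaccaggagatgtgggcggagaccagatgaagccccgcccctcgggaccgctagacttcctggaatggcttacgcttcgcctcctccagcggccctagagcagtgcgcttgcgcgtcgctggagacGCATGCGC

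The NRF1 letters began 60 bases before the start in Cycs, 54 in Sdhb, 83 in Ndufa6 and 8 in Ndufa8. Nrf1 itself read 7.88, 8.01 and 8.20 in FBS and 7.59 and 7.96 in ascites, with overlap (change -0.26, SE 0.16, adjusted p = 0.421). Gabpa, the ETS regulator, changed by -0.17 and Yy1 by 0.20. The coactivator gene Ppargc1a read 7.90, 7.84 and 8.84 in FBS and 7.84 and 6.47 in ascites, the widest spread among the 13 regulators (change -1.04, SE 0.55). Its relative Ppargc1b changed by 0.41 and Pprc1 by 0.42. Esrra, a nuclear receptor that works with them, changed by 0.31 (adjusted p = 0.0862). For mitochondrial DNA expression, Tfam changed by -0.09, Tfb2m by 0.48 (adjusted p = 0.0653) and Polrmt by 0.13. Myc had the smallest p of this list and did not pass (change 1.33, SE 0.23, adjusted p = 0.0563), with readings of 9.52, 9.56 and 10.00 in FBS and 10.77 and 11.27 in ascites. By limma 0 of 13 regulators passed, and 3 had an unadjusted p below 0.05 (23.1%, beside 24.3% of all genes). Myc passed with quantile normalization (adjusted p = 0.036), with dim genes left out (0.04), with array weights (0.0112) and without FBS replicate 3 (0.0309).

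Of 28 further listed genes, mostly subunits, 25 were measured. Their median change was -0.03 (11 higher and 14 lower), and their changes ran from -0.54 to 0.55. By limma 1 was called higher (4%, beside 2.69% of all genes) and 0 lower. Ndufs5, a small accessory subunit of complex I, read 10.85, 10.91 and 10.94 in FBS and 11.43 and 11.47 in ascites, and rose by 0.55 (SE 0.05, 1.46-fold, adjusted p = 0.0237). ND5, a complex I subunit encoded by mitochondrial DNA that was added after its values were seen, read 11.67, 12.04 and 11.56 in FBS and 12.05 and 11.84 in ascites (change 0.19, SE 0.18).

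Assembly factors, which build the complexes, had a median change of 0.30 over 23 of 30 genes, with 18 higher and 5 lower (all genes 6161 and 6069). FBS replicate 3 exceeded the mean of FBS replicates 1 and 2 for 19 of the 23, by a median of 0.22 over the list. By limma 6 had an unadjusted p below 0.05 (26.1%, beside 24.3% of all genes), and 1 passed the threshold (4.35%, beside 2.69% of all genes called higher). The gene that passed was Timmdc1, a membrane factor for complex I assembly. It rose from 8.16 ± 0.15 (SD, n = 3) to 8.87 ± 0.09 (SD, n = 2), with a change of 0.70 (SE 0.11, adjusted p = 0.048). In limma with a variance trend and robust fit Timmdc1 did not pass (adjusted p = 0.0561). Mitochondrial ribosomal proteins, which translate the subunits encoded by mitochondrial DNA, had a median of 0.14 over 74 genes. Of these 54 were higher and 20 lower (all genes 6161 and 6069). FBS replicate 3 exceeded the mean of FBS replicates 1 and 2 for 70 of the 74, by a median of 0.34 over the list, which is more than the median change between the groups. By limma 4 rose (5.41%, beside 2.69% of all genes) and 0 fell. At an unadjusted p below 0.05 there were 17 higher and 2 lower (25.7% in either direction, beside 24.3% of all genes). Mrps31 rose by 1.05 (SE 0.07, adjusted p = 0.0159), Mrpl2 by 0.72, Mrpl23 by 0.68 and Mrps17 by 0.51 (adjusted p = 0.0339 to 0.0383). In that variance model Mrps17 did not pass either (adjusted p = 0.0501). In the citric acid cycle list 0 of 15 genes passed by limma (all genes 5.28%), and the median was 0.12. Only Suclg2 had an unadjusted p below 0.05 (6.67%, beside 24.3% of all genes). It changed by 0.49 (SE 0.11, adjusted p = 0.0875).

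Of 6 measured tissue-restricted isoforms of complex IV and cytochrome c, 1 rose (16.7%, beside 2.69% of all genes) and 1 fell (beside 321 of 12394 genes). Cox6a2, the heart and muscle form of subunit 6a, read 7.57, 7.66 and 7.90 in FBS and 10.54 and 10.74 in ascites, well apart. It rose by 2.93 (SE 0.13, 7.62-fold, 95% confidence interval 5.97-fold to 9.73-fold, adjusted p = 0.0144). Cox6a1, the form found in most tissues, changed by -0.07 (95% confidence interval -0.23 to 0.09). Cox7a1, the muscle form of subunit 7a, read 7.24, 7.14 and 6.37 in FBS and 4.77 and 4.63 in ascites, and fell (adjusted p = 0.0383). Its ascites signal lay below 5.44, the lower quartile of all genes, and may be background, so no size is given for the fall. Its counterpart Cox7a2 changed by -0.12. Cox6b2 read 5.21, 5.31 and 4.81 in FBS, below that quartile, and 6.54 and 5.79 in ascites (adjusted p = 0.12). Cox4i2, Cox8b and the testis cytochrome c gene Cyct lay near or below it on all 5 arrays, and none of these 4 genes passed. Cox6a2 and Cox7a1 were each read by 1 probe set. The adjusted p of Cox6a2 was 0.139 with FBS replicate 1 left out, 0.138 with FBS replicate 2, 0.0891 with ascites replicate 2 and 0.124 with ascites replicate 3, while its change stayed between 2.83 and 3.03. For Cox7a1 the same omissions gave 0.175, 0.194, 0.156 and 0.191.

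**Figure D5:**
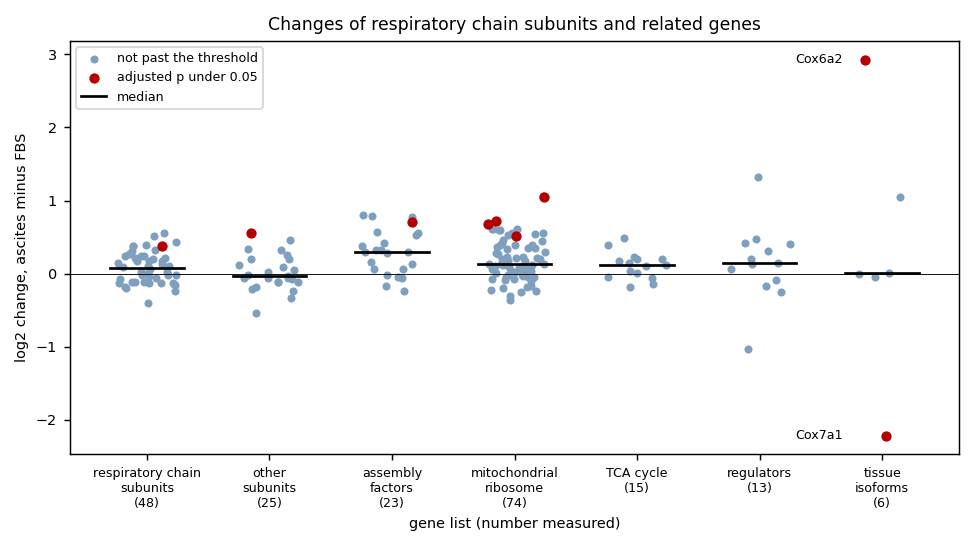
Log2 change (ascites minus FBS, y axis) of each gene in the 48 measured respiratory chain subunits and in 6 related lists (x axis, number measured in brackets); red points passed the threshold and black bars are medians. The subunits lie between -0.40 and 0.56, and among the tissue isoforms Cox6a2 lies at 2.93. The lowest point is Cox7a1, whose ascites signal may be background, so its position is not a measured size.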

How the data were processed

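Total RNA of 5 ID8 samples was labelled with biotin and hybridised to Affymetrix arrays, per the labels' protocols. The deposited log2 values (log2 scale as judged from their range) were made by the authors with Affymetrix Expression Console, per the submitters' processing notes; how probes were summarised is not given in the sources used here. Array medians were 7.4 to 7.47, so no further normalization was applied. Such levelled distributions hide any shift in RNA content per cell. No background or detection call came with the values, and 3 and 2 arrays limit the precision.

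Probe sets (22690 in all) were named from the platform annotation. The 20393 with exactly 1 gene gave 12394 genes, each read from its brightest probe set. The comparison used R 4.3.3 and limma 3.58.1 (lmFit and eBayes, two-sided, no covariate, 3 residual degrees of freedom) across all genes, with Benjamini-Hochberg adjustment and a threshold of 0.05. The calculation was tested on simulated data. The members and lists were chosen with earlier results of these data known, so lists are described by counts and medians only. Named with values on every array were members past the threshold, the largest rise and fall in each complex and a fixed set of core subunits; of related lists, genes past the threshold or with the smallest p. Others were named after their values were seen. Of the 28 further listed genes, Atp5f1 was matched through a RefSeq synonym. Alternatives were the mean of all probe sets, a filter on dim genes, quantile normalization, array weights, another variance model, a replicate block, averaged FBS replicates and each array left out.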

Additional observations from a re-analysis of the deposited data

How the results depend on the processing

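The fit as reported called 333 genes higher and 321 lower, and the share of members called did not keep a fixed relation to that of all genes. With array weights 9 members were called higher and 1 lower, and 1241 and 1371 genes in all. At an unadjusted limma p below 0.05 that fit had 47.9% of members, beside 34.7% of all genes. With the lowest 25% of genes by signal left out, 2 members were called higher and 1 lower, and 425 and 459 genes in all. At an unadjusted limma p below 0.05 there were 20.8% of members, beside 30% of the genes kept. Fewer genes were adjusted for and the pooled variance was refitted. With FBS replicates 1 and 2 averaged, 0 members and 0 genes were called in either direction (2128 genes at an unadjusted p below 0.05). Leaving out each array in turn gave 0 to 12 members called higher and 0 to 1 lower, and 0 to 1137 genes higher and 0 to 1357 lower; the upper values came without FBS replicate 3. With 1 ascites array left, the lone array is assumed to vary like the FBS arrays.

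The replicate block (replicate numbers 2 and 3 occur in both groups) called 0 members and 0 genes in either direction, with 4 members and 1892 genes at an unadjusted p below 0.05. The correlation over genes of same-numbered arrays' deviations from their group mean was 0.03 and 0.04 over only 2 pairs. With 2 ascites arrays these deviations mirror each other, so the values cannot decide whether the numbers pair the arrays. The fit as reported used no block.

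With 1 array left out, the median ran from 0.03 to 0.14 over the members, from 0.15 to 0.22 for complex I, from -0.09 to -0.01 for complex II, from 0.02 to 0.14 for complex III, from -0.11 to -0.06 for complex IV and from -0.06 to 0.08 for complex V. These shifts, and those under the other alternatives, were smaller than the spread between FBS arrays, except that the complex IV median was -0.0496 with the mean of all probe sets; the cause was not tested. Small changes, none of them called, reversed sign for Atp5a1 (0.28) and Cox5a (0.0261) with the mean of all probe sets and for Sdha with array weights (0.0161). With 1 array left out, the change ran from -0.06 to 0.02 for Sdha, from -0.1233 to 0.005 for Cox5a (both positive without FBS replicate 3) and from -0.0333 to 0.1667 for Ndufs1 (negative without ascites replicate 3).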
